A study of Homo sapiens with 6 samples.

Results

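The BCL2 family decides whether the outer mitochondrial membrane of a cell stays intact, and 10 of its genes, chosen by symbol, are described here among the 19792 genes listed for BT-549/tet-WDR5shRNA cells. They comprise the anti-apoptotic genes BCL2, BCL2L1 and MCL1, the effector genes BAX and BAK1, and the BH3-only genes BBC3, PMAIP1, BCL2L11, BID and BIK. The BT-549 line was derived from a human breast tumour and is of the triple-negative class. The cells of all 6 libraries carried a WDR5 shRNA in a puromycin-selected vector whose promoter responds to tetracyclines, and doxycycline (DOX) turns the shRNA on. Whether the line is 1 clone or a pool is not given in the sources used here. The vehicle group held 3 cultures in 0.1% DMSO and the DOX group 3 cultures in 500 ng/ml DOX, and treatment lasted 7 days. RNA-seq on poly(A) RNA was summarised by the authors into 1 mean normalized count per gene over all 6 libraries. Each level below is that mean, pooled over vehicle and DOX, and carries no SD. A difference between DOX and vehicle was not analysed here, since the only values of that comparison are the authors' own fold changes and p-values, and these were not used.

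All 10 genes are listed, and for 9 of them the mean normalized count is at least 10, as it is for 13548 of the 19792 genes. Depth per library is unknown; the means sum to 26551206 over all genes, and the 10 members hold 0.110% of that sum. WDR5, the targeted gene, has a mean normalized count of 1143, and this pooled value does not check the silencing. The mesenchymal markers VIM, ZEB1, FN1, CDH2 and AXL were all abundant, between 4093 and 47782. ESR1 and PGR, the estrogen and progesterone receptors, had means of only 0.790 and 0.801, each above 14.6% of all genes listed. ERBB2, the third receptor that defines the triple-negative class by its protein, was not low at 1221. Of 5 luminal epithelial markers, EPCAM was lowest at 1.30 and KRT18 highest at 435. Of the other markers, PTPRC of blood cells was at 44.7, whereas LYZ, PECAM1, CDH5 and VWF lay between 0.172 and 2.86, and CD3E is not among the genes listed.

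Cells commit to intrinsic apoptosis when the effector proteins BAX and BAK assemble into pores in the outer mitochondrial membrane and release cytochrome c. The anti-apoptotic proteins hold the effectors and the BH3-only proteins in check by binding their BH3 segment in a groove, and the BH3-only proteins act as sensors of stress that occupy that groove or activate the effectors directly. Drugs that fill this groove, the BH3 mimetics, have been made against BCL2, BCL-XL and MCL1.

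MCL1 had the highest level of the 3 anti-apoptotic genes, and of all 10 members. It encodes a short-lived protein that binds BAK and the BH3-only proteins NOXA and BIM. The mean normalized count of MCL1 was 20809, which was higher than that of 99.1% of the 13548 genes whose mean is at least 10, and put it at place 117 of 19792. BCL2L1, which encodes BCL-XL, followed at 1707, above 72.4% of the same genes. BCL2, the founding member and the target of venetoclax, was at 327, above only 35.4% of them. Longer transcripts collect more reads, so genes were compared by the mean normalized count per kb of the canonical transcript in GENCODE 44. On this per-length scale MCL1 (transcript of 3950 bases) had a level of 5268 per kb, BCL2L1 (2574 bases) of 663 per kb and BCL2 (6881 bases) of 47.6 per kb. The level of MCL1 per kb was thus 7.94 times that of BCL2L1 and 111 times that of BCL2. Division by the coding length or by all annotated exons moved the first ratio only to 8.13 and 8.22, whereas the second lay between 43.5 and 129. MCL1 exceeded BCL2L1, and BCL2L1 exceeded BCL2, under each of these 3 lengths. As the spread between the libraries is not known here, no test stands behind these orders. In bulk RNA, few cells with a transcript and little transcript in each cell cannot be told apart.

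**Figure D1:**
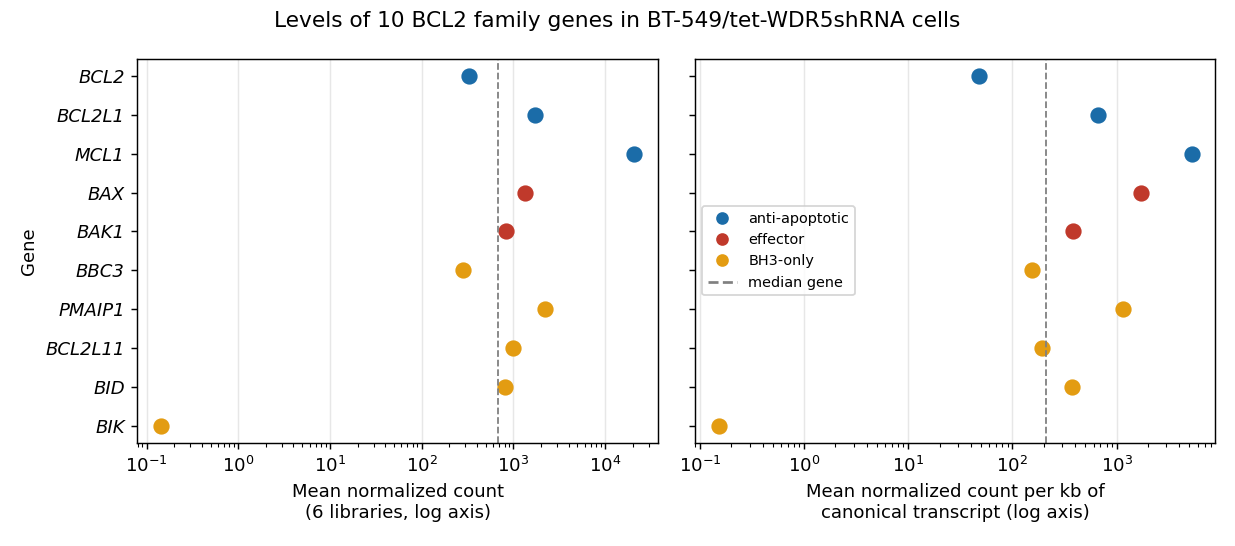
Mean normalized count over 6 libraries (left) and the same per kb of canonical transcript (right) for each of the 10 genes, on log axes; each point is 1 gene, colours give the role, and the dashed line is the median of the genes with a mean of at least 10 (677 on the left, 208 per kb on the right). MCL1 stands farthest to the right at 20809, and BIK farthest to the left at 0.144.

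Both effector genes were expressed, and BAX exceeded BAK1. BAX encodes a protein that moves from the cytosol to mitochondria on activation, and BAK1 a protein that sits in the outer membrane throughout. The mean normalized count was 1353 for BAX and 822 for BAK1, above 67.1% and 54.5% of the genes with a mean of at least 10. Per kb of canonical transcript the level of BAX was 1701 and that of BAK1 was 379, a ratio of 4.49. This ratio rests on the short canonical transcript of BAX, which has 795 bases where all its annotated exons cover 2587. It was 1.81 per kb of coding sequence and 1.41 over all exons, so that BAX kept the higher level with a margin that depends on the length. Gene counts do not tell which BAX transcripts were present.

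WDR5 is known as a partner of MYC, which binds with MAX to the E-box letters CACGTG, and the study concerns AP-1 and NF-κB as well. The promoters of the members were therefore searched on both strands for CACGTG, for the AP-1 letters TGANTCA (both read the same on either strand, and neither contains the other) and for the κB consensus, in the 250 bases before each start site of the RefSeq promoter table (GRCh38.p14). The table holds 13 start sites for 8 of the members, with 5 for BID and 2 for BCL2L1, and MCL1 and BIK have no entry. The BAX promoter is shown because it holds CACGTG 4 times. Of all 35116 windows of this length, 5 hold it 4 or more times, the BAX window among them. Its matches start 138, 93, 45 and 14 bases before the start site. The window is chr19:48954625-48954874 on the plus strand, printed 5′ to 3′ with the CACGTG matches in capitals.
BAX: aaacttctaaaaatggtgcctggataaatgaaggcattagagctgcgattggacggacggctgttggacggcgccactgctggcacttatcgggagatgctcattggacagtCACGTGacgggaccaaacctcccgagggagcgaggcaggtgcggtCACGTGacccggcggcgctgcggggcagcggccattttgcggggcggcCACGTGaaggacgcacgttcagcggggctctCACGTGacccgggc

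BAK1 has neither motif in its window, nor has BCL2, PMAIP1, BCL2L11 or either window of BCL2L1. CACGTG occurs in 6.34% of all windows and in 8.15% of those of genes whose mean is at least 10. Among the members it occurs in 4 of the 13 windows, from BAX, BBC3 and BID. The BID windows among these 4 overlap and hold the same site, so they are not separate cases. The κB consensus searched was GGGRNWYYCC, where R is A or G, N any base, W A or T and Y C or T. It is in 5.21% of all windows, 6.07% of those of genes whose mean is at least 10, and 0 of the 13. That says only that these letters are not in the 13 stretches. The median GC content was 68.8% over the 13 windows and 64.4% over the windows of genes with a mean of at least 10. BID supplies several of the 13 windows, some of them overlapping, so the median of 68.8% weighs BID more than the other members. A match of letters is a description, and binding of a factor was not measured in these libraries.

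Among the BH3-only genes, PMAIP1 was the most abundant and BIK lay near the bottom of the table. PMAIP1 encodes NOXA, which binds MCL1 and promotes its degradation, and its mean normalized count of 2192 was second to MCL1 among the 10 members. BCL2L11 encodes BIM, a direct activator of the effectors, and was at 983. BID, whose protein is cut by caspase 8 and so joins the death receptor route to mitochondria, was at 818. BBC3 encodes PUMA, which binds all anti-apoptotic proteins, and was at 285. These 4 genes were above 78.0%, 58.8%, 54.3% and 33.0% of the genes with a mean of at least 10. BIK, which encodes a BH3-only protein of the endoplasmic reticulum that is expressed in epithelia, had a mean of 0.144. Summed over the 6 libraries that is 0.863 normalized counts, and 470 of the 19792 genes have a lower mean. No ratio is given against a gene with so few reads.

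On the per-length scale, the level of PMAIP1 was 1154 per kb, that of BID 376 per kb, that of BCL2L11 193 per kb and that of BBC3 155 per kb. PMAIP1 led these 4 genes and BBC3 was the lowest of them under each of the 3 lengths. BID was 1.95 times as high as BCL2L11 by canonical transcript and 1.27 times by all exons, but 0.844 times by coding length, so their order is not settled. PMAIP1 has a coding sequence of only 165 bases in a transcript of 1899, which raises its level to 13284 per coding kb. BCL2L11 shares 727 exonic bases with MIR4435-2HG, a noncoding gene on the opposite strand with a mean normalized count of 939. The libraries were stranded, but whether the counting used the strand is not given in the sources used here, and reads in the shared bases could then belong to either gene. On opposite strands, BCL2L1 also shares 1735 exonic bases with ABALON (mean normalized count 3.80), BAK1 shares 91 with GGNBP1 (0.452) and MCL1 shares 43 with ADAMTSL4 (646). On the same strand, where strand does not separate reads, MCL1 shares 328 exonic bases with ADAMTSL4-AS1 (4.80) and BBC3 shares 76 with MIR3191 (3.80).

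The BBC3 promoter is shown because it is the one among the 13 windows with an AP-1 match, and it holds a CACGTG as well. TGANTCA is found in 6.57% of all windows and in 4.40% of those of genes whose mean is at least 10. In BBC3 the AP-1 match starts 113 bases and the CACGTG 232 bases before the start site. This RefSeq start lies upstream of that of the canonical GENCODE transcript. The window is chr19:47232668-47232917 on the minus strand, with both matches in capitals.
BBC3: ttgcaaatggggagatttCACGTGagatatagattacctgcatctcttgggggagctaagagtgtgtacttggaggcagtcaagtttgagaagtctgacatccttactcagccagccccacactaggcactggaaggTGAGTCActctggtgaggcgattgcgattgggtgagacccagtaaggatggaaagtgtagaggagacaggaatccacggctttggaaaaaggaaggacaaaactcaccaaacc

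BID has a CACGTG in 2 of its 5 windows, which overlap and hold the same site. It is shown for the start site that lies nearer to it, 47 bases away, in the window chr22:17774043-17774292 on the minus strand, with the match in capitals. The window of the canonical start site of BID has no match.
BID: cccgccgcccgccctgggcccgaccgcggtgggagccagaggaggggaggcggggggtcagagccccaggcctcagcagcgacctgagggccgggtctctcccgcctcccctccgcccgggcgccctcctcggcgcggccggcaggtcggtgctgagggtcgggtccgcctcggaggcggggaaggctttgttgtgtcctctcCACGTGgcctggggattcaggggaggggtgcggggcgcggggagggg

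**Figure D2:**
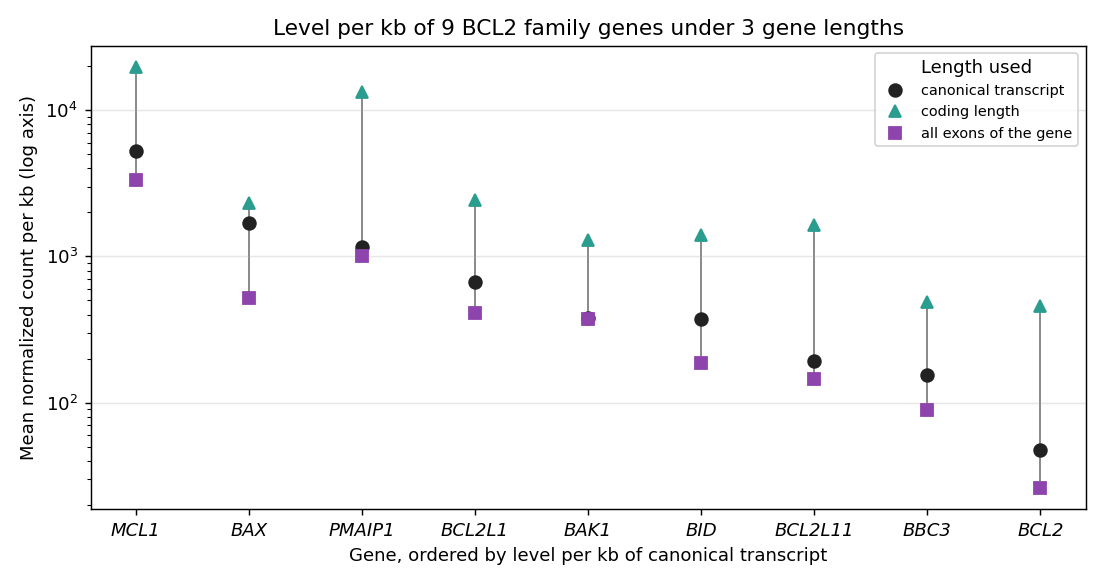
Mean normalized count per kb (log axis) of the 9 members with a mean of at least 10, divided by the length of the canonical transcript (circles), by the coding length (triangles) or by the length of all annotated exons (squares). MCL1 is highest and BCL2 lowest of the 9 under each length, and PMAIP1 and BAX change places.

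Over the whole family, the order by level per kb of canonical transcript was MCL1, BAX, PMAIP1, BCL2L1, BAK1, BID, BCL2L11, BBC3, BCL2 and BIK. BIK was last under every length by a margin that no length could turn. Of the 36 pairs that the other 9 genes form, 31 had the same order under all 3 lengths. The other 5 pairs were BAX with BCL2L1, BAX with PMAIP1, BAK1 with BID, BAK1 with BCL2L11, and BID with BCL2L11. The closest neighbours were BAK1 and BID, whose levels per kb of canonical transcript were 379 and 376. The lead of MCL1 over the next gene was 3.10-fold by canonical transcript (over BAX), 3.34-fold by all exons and 1.49-fold by coding length (over PMAIP1 in both). MCL1 made up 53.0% of the summed level per kb of the 10 genes by canonical transcript, 45.9% by coding length and 54.9% by all exons. At the other end, BCL2 contributed 0.479% by canonical transcript. From BCL2 to MCL1, the 9 genes with a mean of at least 10 thus spanned a 111-fold range of levels per kb.

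Summed by role, the level per kb of canonical transcript was 5979 for the anti-apoptotic genes, 2080 for the effectors and 1877 for the BH3-only genes. The roles hold unequal numbers of genes, so these sums are not levels per gene. The anti-apoptotic sum was 2.87 times that of the effectors and 3.18 times that of the BH3-only genes. With the highest gene of each role left out (MCL1, BAX and PMAIP1), the anti-apoptotic sum was 1.88 times the effector sum and 0.983 times the BH3-only sum. The effector and BH3-only sums could not be put in order, as their ratio was 1.11 by canonical transcript and 0.216 by coding length, where PMAIP1 dominates. RNA levels do not give the amounts of protein, and MCL1 and NOXA are both degraded quickly.

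**Figure D3:**
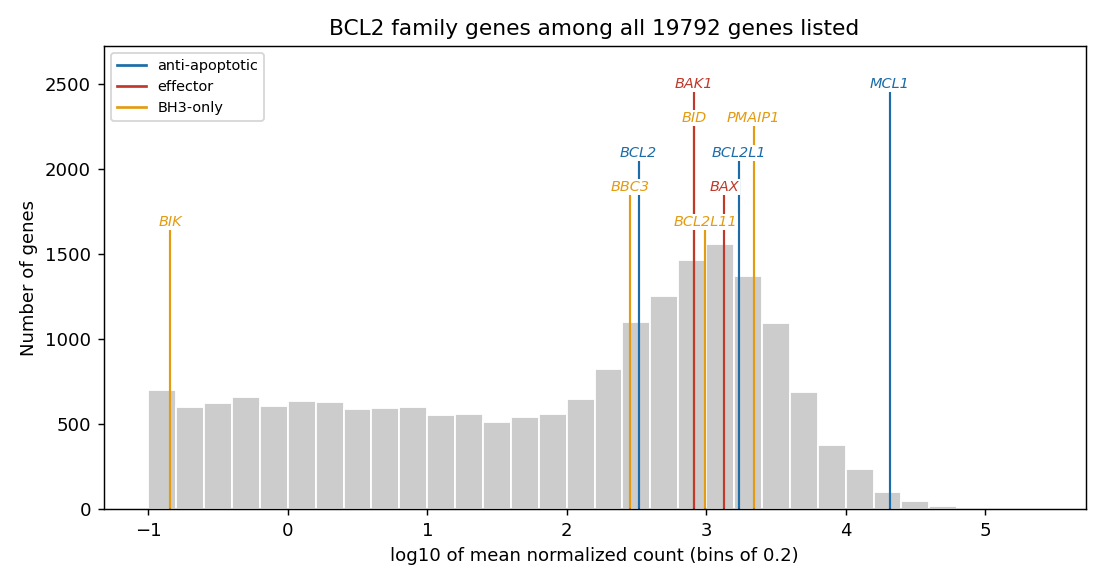
Number of genes (vertical axis) in bins of the log10 mean normalized count (horizontal axis) for all 19792 genes listed, with 1 line at the level of each BCL2 family member, coloured by role. MCL1 lies in the right tail at 20809, 8 members lie between 285 and 2192, and BIK lies at the left edge at 0.144.

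In relation to the rest of the transcriptome, 7 of the 10 members had a mean normalized count above 677, the median of the genes with a mean of at least 10. BCL2, BBC3 and BIK were below it. The median over the 10 members was 903. Per kb of canonical transcript, 6 of the 10 were above the median gene of 208 per kb, since BCL2L11 with its long transcript dropped to 193. This drop belongs to that length, as BCL2L11 was above 77.1% of genes by coding length and above 53.1% over all exons. The largest shift on this scale was that of BAX, which was above 67.1% of genes by mean normalized count and above 91.5% per kb. BAX was above 83.3% by coding length and 82.5% over all exons. Larger shifts were then those of PMAIP1 by coding length (78.0% to 97.5%) and BAK1 over all exons (54.5% to 75.8%).

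The members are spread over 7 chromosomes, and 3 pairs share one. In GENCODE 44 on GRCh38, MCL1 lies on chromosome 1 from 150560895 to 150579738, BCL2L11 on chromosome 2 from 111119378 to 111168444, BAK1 on chromosome 6 from 33572547 to 33580293 and BCL2L1 on chromosome 20 from 31664452 to 31723989. BBC3 (47220822 to 47232766) and BAX (48954815 to 48961798) lie 1.72 Mb apart on chromosome 19, and PMAIP1 (59899996 to 59904305) and BCL2 (63123346 to 63320128) lie 3.22 Mb apart on chromosome 18. BID (17734138 to 17774770) and BIK (43110750 to 43129712) lie 25.3 Mb apart on chromosome 22. Each pair joins genes of unlike level per kb. PMAIP1 was at 1154 and BCL2 at 47.6, and BAX was at 1701 and BBC3 at 155.

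The other BCL2 family genes covered the same wide range. Of 13 such genes, 8 reached a mean of 10, and the median per kb was 137. The highest was BNIP3L at 12312, or 3567 per kb, and BNIP3 was at 3461, or 2244 per kb; both encode mitophagy receptors of mitochondria that are induced by low oxygen. Of the anti-apoptotic relatives, BCL2L2, which encodes BCL-W, was at 1076 and 305 per kb, which was 6.42 times the level of BCL2 per kb and below that of BCL2L1. BCL2A1, an NF-κB target of blood cells, was at 4.27 and BCL2L10 at 1.10. BOK, the effector-like relative of BAX and BAK, was at 360 and 137 per kb. Of the remaining BH3-only genes, BAD was at 379 (408 per kb), BMF at 47.8 and HRK, a gene of neurons, at 9.92. BCL2L14 was lowest at 0.210, near BIK.

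All 11 genes listed for the mitochondrial pathway below the BCL2 proteins had means of at least 182, with a median per kb of 713. The channel genes VDAC1, VDAC3 and VDAC2, whose proteins form pores of the outer membrane, were at 4954, 4631 and 1671 per kb. CYCS, the gene of cytochrome c, was at 1894 per kb. The VDAC genes and CYCS have processed pseudogenes, to which part of their reads may have been assigned, so these levels are uncertain. APAF1, the scaffold of the apoptosome, was at 127 per kb, and CASP9, the initiator caspase that it activates, was the lowest of the 11 at 85.1 per kb. DIABLO, which releases caspases from their inhibitors, was at 713 per kb. All 5 inhibitor genes were expressed, from BIRC3 at 98.0 to BIRC5 at 810 per kb of canonical transcript. XIAP, the direct caspase inhibitor, was at 373 per kb. These ends depend on the length, as BIRC6 was lowest per coding kb (155) and BIRC2 highest over all exons (655).

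**Figure D4:**
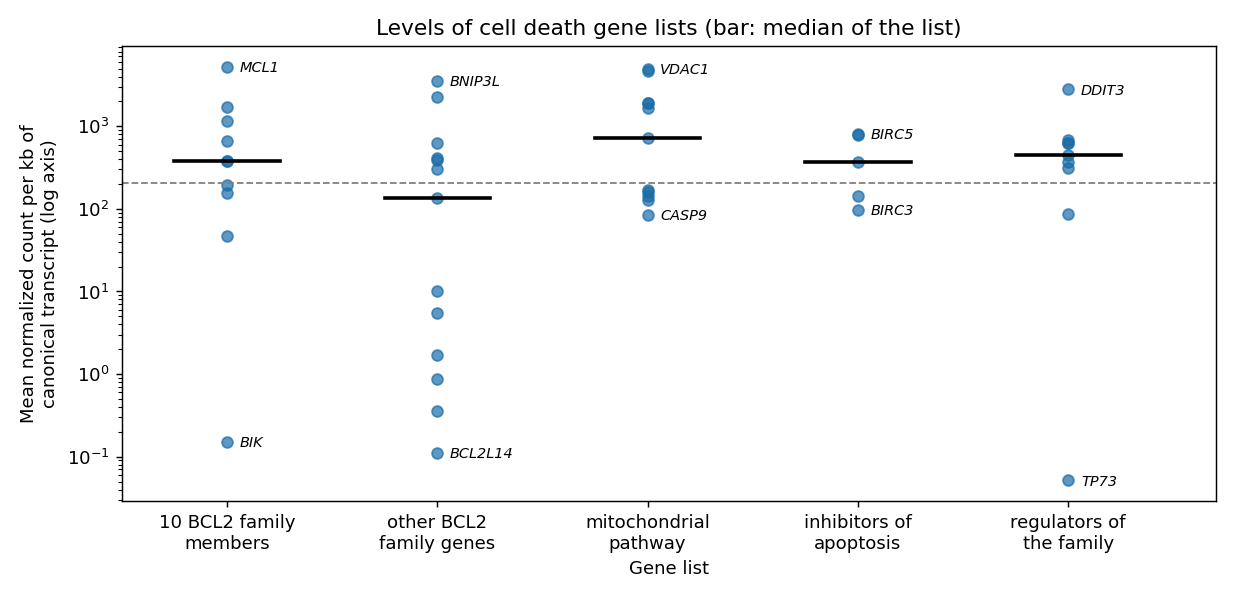
Mean normalized count per kb of canonical transcript (log axis) for the genes of 5 lists; each point is 1 gene, bars are list medians and the dashed line is the median of the genes with a mean of at least 10 (208 per kb). The lowest and the highest gene of each list are named, and the 10 members have a median of 377 per kb.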

How the data were processed

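Messenger RNA of BT-549/tet-WDR5shRNA cells was sequenced from 3 vehicle and 3 DOX cultures, grouped by the sample titles. Per the labels and the paper's methods, the authors prepared stranded poly(A) libraries, aligned reads with STAR to GRCh38 (the paper adds a suffix that may be an annotation release, but is unclear) and normalized counts with DESeq2. RNA came from an RNeasy kit per the labels but from Trizol per the paper. The counter and the tool versions are not given in the sources used here. The deposited signal is the mean normalized count per gene, made by the authors as the mean over all 6 libraries of counts divided by size factors. The other deposited columns (fold change, standard error, statistic, p-values) are the authors' comparison of DOX with vehicle and were not used.

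Levels were ranked over all genes and over those with a mean of at least 10, and divided by length in kb. Lengths were those of the Ensembl canonical transcript, its coding part with stop codon, or all exons merged, from GENCODE 44. Of the 19792 symbols, 17729 matched directly, 592 through a RefSeq synonym and 1471 did not match. Of the 13548 genes with a mean of at least 10, 13023 had a length. Members and lists were chosen with earlier results of these data known. The genes named are the members, the other lists fixed with them (other family genes, mitochondrial pathway, inhibitors, regulators, markers) and genes overlapping a member's exons. No test was possible without values of single libraries. The planned protein features were not analysed here, and some genes of the lists are not reported here. Functions were tested on simulated data. Python 3.11.15, numpy 2.4.6, pandas 2.3.3 and matplotlib 3.10.9 were used.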

Additional observations from a re-analysis of the deposited data

How the results depend on the processing

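The number of members above the median gene was 7 of 10 among genes whose mean is at least 10. It stayed between 6 and 9 against all genes, against genes with a mean of at least 1, and per kb of canonical transcript. Of the 10 places in the order per kb of canonical transcript, 8 were kept with the length of all exons, 5 with the coding length and 2 with no division by length. The ratio of the anti-apoptotic to the effector sum, 2.87 by canonical transcript, was 6.24 by coding length, 4.22 by all exons, 2.84 with the other family genes of the same role added and 1.88 without the highest gene of each role. The ratio of the anti-apoptotic to the BH3-only sum, 3.18, was 1.35, 2.65, 2.74 and 0.983 under the same settings in that order. The ratio of the effector to the BH3-only sum, 1.11, turned below 1 in all of them, at 0.216, 0.628, 0.965 and 0.524. The length or the genes summed are what each setting changes. No paired analysis was possible because the table holds no column of a single library, and for the same reason no library was left out and the planned count test of DOX against vehicle was not run. Depth per library is unknown, so counting error is not stated, and it weighs most on genes with low means, which among the members is BIK.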

Other observations

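Genes that regulate the members were taken as a further list of 9, and 8 of them reached a mean normalized count of 10. DDIT3, which encodes the stress factor CHOP, an inducer of BCL2L11 and BBC3, was highest per kb of canonical transcript, at 2805 per kb. TP73 was lowest, with a mean normalized count of 0.267. FOXO3, a further inducer of BCL2L11 and BBC3, was at 310 per kb and E2F1 at 366 per kb.

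The same list holds a few genes whose products act on the turnover of the MCL1 protein. HUWE1, the gene of the ubiquitin ligase MULE, had a mean normalized count of 9318 but a transcript of 14731 bases, so its level was 633 per kb. The deubiquitinase gene USP9X was at 8625, or 688 per kb, while FBXW7, which encodes a ligase subunit, was at 482, or 85.5 per kb. The list also holds the deubiquitinase gene USP7, at 627 per kb, for which no role in MCL1 turnover is claimed here. CASP8, whose product cuts BID, was at 1191, or 448 per kb of canonical transcript, against 376 per kb for BID itself. This order turned per coding kb (827 against 1391) and over all exons (165 against 185), so it is not settled.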
